A study of Mus musculus with 9 samples.

Results

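The genes described here are 9 homeobox genes of the TALE family (named for a 3-amino-acid loop extension in the homeodomain): Meis1, Meis2, Meis3, Pbx2, Pbx3, Pbx4, Pknox1, Tgif1 and Tgif2. They were taken by symbol, whatever their values, and all 9 were found among the 55488 genes listed in each of 9 RNA-seq libraries. The libraries were made from sorted cells of C57BL/6 mouse fetal livers at embryonic day 14.5, each from the lysate of 100 cells. The Evi1 HSC group (3 libraries) came from Tie2-Cre::ROSA-Evi1 embryos, in which a Cre recombinase driven in endothelial and blood cells turns on an Evi1 transgene, and held lineage-negative cells positive for GFP, c-Kit, Sca-1 and CD150 and negative for CD48, a haematopoietic stem cell (HSC) gate. The WT HSC group (3 libraries) used those surface markers but not GFP, on ROSA-Evi1 embryos that lack Cre. The WT KL group (3 libraries) held c-Kit+ Sca-1- Lin- cells, a gate of committed progenitors, from ROSA-Evi1 embryos as well. All 3 groups thus carried the ROSA-Evi1 allele. Separate embryos or litters are not stated for the libraries of a group, so a p-value here reflects the spread among these samples alone, and that spread may be technical.

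TALE proteins are DNA-binding partners. Meis and Pknox proteins bind Pbx proteins, and the pair can bind DNA together with a Hox protein, which sharpens the choice of Hox binding sites. In the blood system Meis1 is needed for fetal liver stem cells and, with Hoxa9, drives leukaemia in mice. Pknox1, also called Prep1, competes with Meis proteins for Pbx. Tgif1 and Tgif2 have the same kind of homeodomain but act mainly as repressors that join Smad proteins and corepressors in TGF-beta signalling.

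The homeobox stretch around the loop is shown for all 9 genes because it is what places them in 1 family and separates its branches. Each stretch is 57 coding bases from the GENCODE vM21 transcripts on GRCm38 (mm10), 5′ to 3′ on the coding strand, with the 9-base run of the loop codons in capitals.
Meis1: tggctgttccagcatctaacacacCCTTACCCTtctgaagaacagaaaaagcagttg
Meis2: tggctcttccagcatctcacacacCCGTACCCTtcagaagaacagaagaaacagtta
Meis3: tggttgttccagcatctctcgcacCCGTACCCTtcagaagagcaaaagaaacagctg
Pbx2: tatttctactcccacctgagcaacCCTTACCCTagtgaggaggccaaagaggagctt
Pbx3: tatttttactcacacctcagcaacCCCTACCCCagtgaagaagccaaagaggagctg
Pbx4: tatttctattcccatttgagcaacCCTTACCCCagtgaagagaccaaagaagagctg
Pknox1: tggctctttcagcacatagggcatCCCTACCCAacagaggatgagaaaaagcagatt
Tgif1: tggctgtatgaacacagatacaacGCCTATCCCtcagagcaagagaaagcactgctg
Tgif2: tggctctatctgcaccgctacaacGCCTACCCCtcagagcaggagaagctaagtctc
The stretches were located by a search for the run CCNTANCCN or GCNTANCCN, so of its fixed letters only the first could differ between genes. The 7 Meis, Pbx and Pknox genes had CCNTANCCN, and both Tgif genes had GCNTANCCN. Within branches the stretches were alike, with 87.7% identical bases between Meis1 and Meis2, 86.0% between Pbx2 and Pbx3 and 73.7% between Tgif1 and Tgif2. Meis1 shared 70.2% with Pknox1, 57.9% with Pbx2 and 50.9% with Tgif2.

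Values are TPM, a length-scaled share of all transcripts in a library, so levels of different genes can be set beside each other. Tests were run on log2(TPM + 1) with limma over the 19461 genes that reached 1 TPM in 3 libraries or more, and a gene was called at a Benjamini-Hochberg adjusted p under 0.05. 7 of the 9 members passed that filter, and Meis2 and Meis3 did not. In bulk samples, fewer cells of a type and less RNA per cell cannot be told apart.

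Mecom, the locus of Evi1, had 209, 176 and 210 TPM in the Evi1 HSC libraries, against 161, 114 and 0.0167 TPM under the WT HSC label and 90.8, 0.0107 and 0.325 TPM under the WT KL label. Egfp had 23.4 to 27.3 TPM in the Evi1 HSC libraries and at most 0.380 TPM in the other 6. By contrast with its label, WT HSC replicate 3 had Ly6a (the gene of Sca-1) listed at 0 and 579 TPM of the granule gene Mpo, whereas 19.7 TPM of Ly6a and 13.6 TPM of Mpo were found under the label WT KL replicate 1. Both therefore went against their labels. Results are given first over the 9 libraries as labelled and then over the 7 libraries without these 2, namely Evi1 HSC replicates 1 to 3, WT HSC replicates 1 and 2 and WT KL replicates 2 and 3.

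Meis1 (ENSMUSG00000020160, chr11:18879817-19018985, minus strand) was the most abundant member in the Evi1 HSC libraries. It had 53.1, 59.7 and 64.2 TPM in Evi1 HSC, 54.3, 64.2 and 1.86 TPM under the WT HSC label, and 63.6, 1.51 and 1.61 TPM under the WT KL label. The only high value under the WT KL label and the only low value under the WT HSC label were those of the 2 libraries that went against their labels. Without those 2, Meis1 averaged 59.0 ± 5.58 TPM in Evi1 HSC (SD, n = 3), 59.2 ± 6.97 TPM in WT HSC (SD, n = 2) and 1.56 ± 0.0691 TPM in WT KL (SD, n = 2). Evi1 HSC and WT HSC overlapped, and both lay far above WT KL. The ratio of mean TPM was 37.8 for Evi1 HSC over WT KL and 38.0 for WT HSC over WT KL. Of the 10532 exonic bases of Meis1, 1925 also belong to the annotated genes Gm16140 on the other strand and Gm37818 on the same strand, whose reads could not be told apart here.

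Meis2 and Meis3, close relatives of Meis1 known mainly from embryonic and neural tissues, were near the lower end of the scale. Meis2 had 0.226, 0.498 and 2.93 TPM in Evi1 HSC, against 0.626, 2.13 and 0 TPM under the WT HSC label and 0.732, 0.00368 and 0.0116 TPM under the WT KL label. The 2 values above 1 TPM were in 1 Evi1 HSC and 1 WT HSC library, and the spread within each HSC group was wide. Meis3 did not exceed 0.505 TPM in any library and was listed at 0 in 2 Evi1 HSC libraries. Neither gene was tested.

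Pbx2 (ENSMUSG00000034673, chr17:34591266-34597400, plus strand), a broadly expressed partner of Meis and Hox proteins, was the second most abundant member wherever Meis1 was high and the most abundant where Meis1 was low. It had 42.3, 39.3 and 44.8 TPM in Evi1 HSC, 35.6, 35.8 and 21.1 TPM under the WT HSC label, and 39.3, 23.8 and 19.6 TPM under the WT KL label. Without the 2 libraries, the 3 groups did not overlap, in the order Evi1 HSC, WT HSC, WT KL from high to low. The ratio of mean TPM over WT KL was 1.94 in Evi1 HSC and 1.65 in WT HSC. Of the 3640 exonic bases of Pbx2, 227 also belong to the gene Gpsm3 on the same strand, whose reads could not be told apart here.

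Pbx3, a Pbx member linked to HOXA9 and MEIS1 in human leukaemia, had 7.92, 8.39 and 6.07 TPM in Evi1 HSC, 9.63, 7.17 and 11.3 TPM under the WT HSC label, and 15.0, 7.07 and 8.40 TPM under the WT KL label. Its groups overlapped in every pairing, with and without the 2 libraries. Pbx4, a less studied Pbx member, had 2.63, 9.60 and 3.71 TPM in Evi1 HSC, 3.52, 9.40 and 2.04 TPM under the WT HSC label, and 7.32, 0.943 and 3.12 TPM under the WT KL label. Its SD over the 7 libraries in log2(TPM + 1) was 0.81 in Evi1 HSC, 0.85 in WT HSC and 0.77 in WT KL, wider in each group than that of the other 6 tested members.

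Pknox1, the competitor of Meis proteins for Pbx, had 10.6, 12.2 and 17.5 TPM in Evi1 HSC, 19.6, 9.09 and 14.7 TPM under the WT HSC label, and 14.7, 11.2 and 7.63 TPM under the WT KL label. The groups overlapped in every pairing. Unlike Meis1, it was not below 7.63 TPM in any library. Of its 6933 exonic bases, 155 also belong to the annotated gene AC166172.4 on the other strand.

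Tgif1 (ENSMUSG00000047407, chr17:70844205-70853546, minus strand), a repressor that binds Smad proteins, had 22.0, 19.5 and 22.7 TPM in Evi1 HSC, 22.9, 23.7 and 7.67 TPM under the WT HSC label, and 25.9, 9.39 and 6.37 TPM under the WT KL label. Its 2 odd values were again those of the libraries against their labels. The ratio of mean TPM over WT KL was 2.72 in Evi1 HSC and 2.96 in WT HSC over the 7 libraries. Tgif2, its close relative, had 6.32, 5.30 and 10.1 TPM in Evi1 HSC, 5.19, 6.62 and 2.59 TPM under the WT HSC label, and 8.14, 4.99 and 2.96 TPM under the WT KL label. Tgif2 values are uncertain because the transcribed processed pseudogene Tgif2-ps2 matched Tgif2 at 99.3% of 735 aligned bases and was itself listed at 4.25 to 10.5 TPM. In addition, 2360 of the 3832 exonic bases of Tgif2 overlap genes annotated on the other strand, and no source used here says whether reads were counted by strand.

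**Figure D1:**
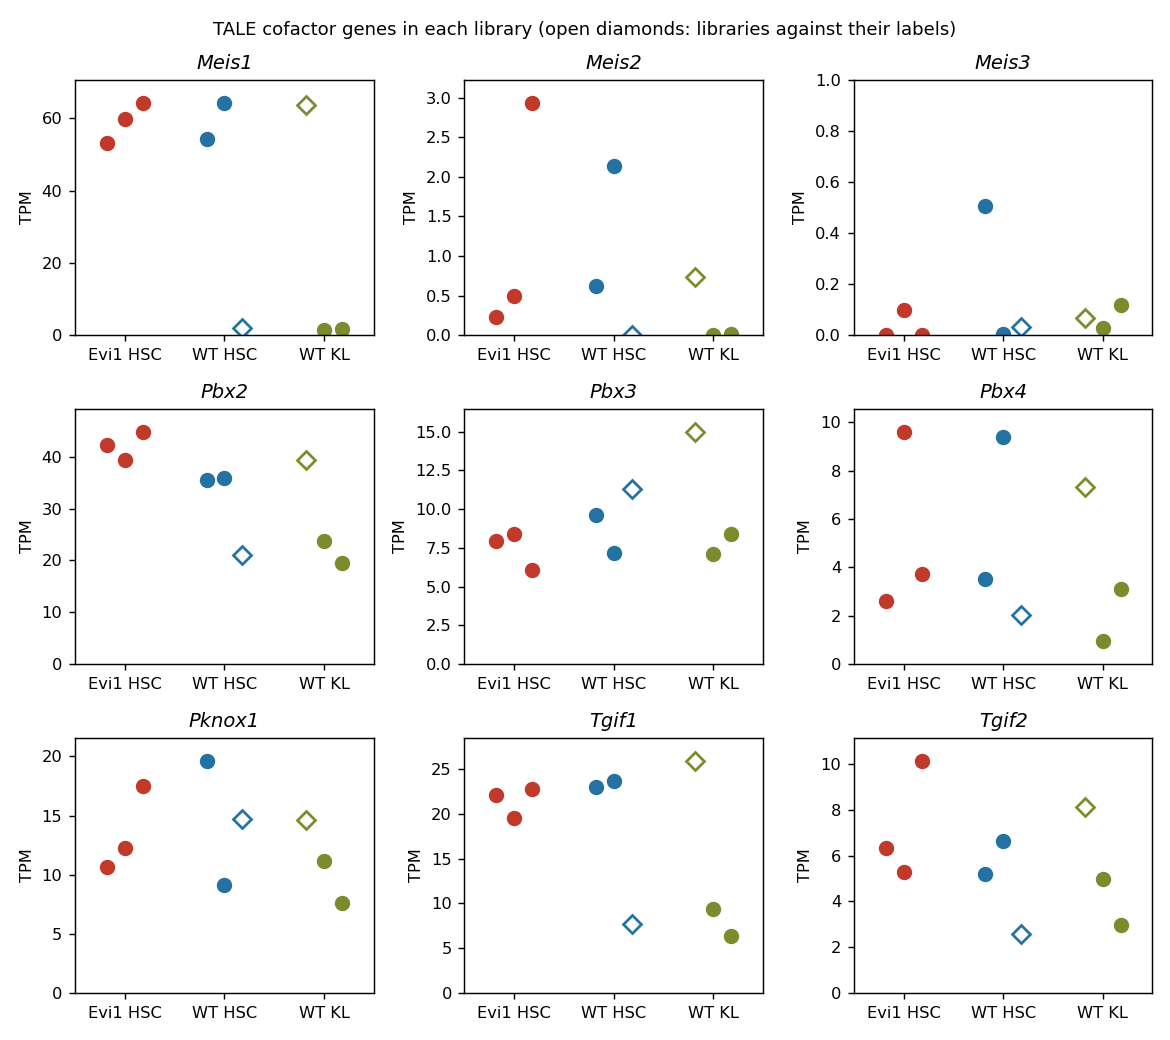
TPM of each TALE member (vertical axes, linear, from 0) in the 3 groups (horizontal axis, Evi1 HSC leftmost, WT KL rightmost), with 1 point per library and open diamonds for the libraries labelled WT HSC replicate 3 and WT KL replicate 1. Meis1 lies between 53.1 and 64.2 TPM in the filled points of both HSC groups and at 1.51 and 1.61 TPM in those of WT KL, while Pbx3 and Pknox1 overlap across groups.

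Summed over the 9 members, the libraries held 145 to 172 TPM in Evi1 HSC, 152 and 158 TPM in WT HSC replicates 1 and 2, and 58.8 and 49.8 TPM in WT KL replicates 2 and 3. The sums were 61.3 TPM for the library labelled WT HSC replicate 3 and 175 TPM for that labelled WT KL replicate 1. Meis1 made up 36.6 to 38.6% of the sum in Evi1 HSC, 35.7 and 40.6% in WT HSC replicates 1 and 2, and 2.57 and 3.23% in WT KL replicates 2 and 3. In the 3 Evi1 HSC libraries the order was Meis1, Pbx2, Tgif1, Pknox1, with no overlap between neighbours, then Pbx3, Tgif2 and Pbx4, which overlapped, then Meis2 and Meis3. WT HSC replicates 1 and 2 had the same first 3, and Pknox1 overlapped with Pbx3 and Pbx4 there. In WT KL replicates 2 and 3 Pbx2 came first, Pknox1, Pbx3 and Tgif1 overlapped, and Meis1 was below all of these.

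**Figure D2:**
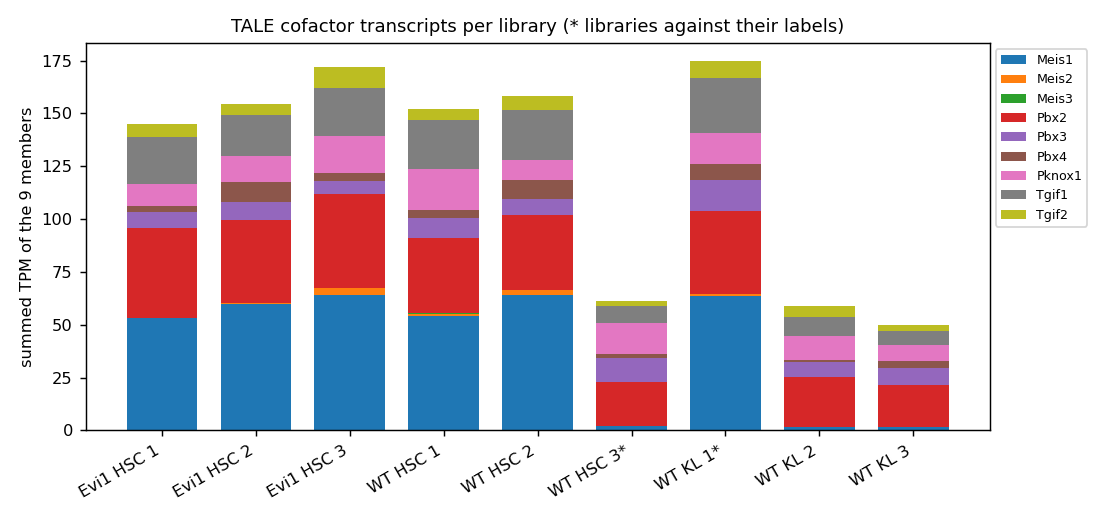
Stacked TPM of the 9 members (vertical axis) in each library (horizontal axis, Evi1 HSC, WT HSC, WT KL), with an asterisk at the libraries labelled WT HSC replicate 3 and WT KL replicate 1. The Meis1 segment takes 35.7 to 40.6% of the bar in 6 libraries and 2.57 to 3.23% in the other 3, whose sums are 49.8 to 61.3 TPM.

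Evi1 HSC and WT HSC were compared first. Within the stem cell gate they differ by Tie2-Cre, by the Evi1 transgene it turns on and by the GFP gate. These cannot be told apart here. No member passed the test. Over the 9 libraries 0 of 7 tested members were called, where 0.00514% of all tested genes were (1 gene); 0 of 7 members and 907 of all genes had an unadjusted p under 0.05. Over the 7 libraries 0 of 7 members were called, where 0.206% of all tested genes were (40 genes); 0 of 7 members and 1635 of all genes had an unadjusted p under 0.05. The median difference in log2(TPM + 1) over the members was -0.03, beside 0.00053 over all tested genes. A missed threshold does not show equal levels, and the intervals say how large a difference these libraries leave room for. The Meis1 difference in log2(TPM + 1) was -0.0045 (SE 0.15, 95% interval -0.35 to 0.34, limma adjusted p = 0.998). For Pbx2 it was 0.23 (SE 0.13, interval -0.09 to 0.55, limma adjusted p = 0.712), although its 3 Evi1 HSC values lay above both WT HSC values. For Tgif1 it was -0.12 (SE 0.18, interval -0.55 to 0.31, limma adjusted p = 0.921). Pbx2 and Tgif1 were the 2 of 7 members whose groups did not overlap, where 24.1% of all tested genes did not. The other 4 differences ran from -0.28 (Pbx4, SE 0.58) to 0.22 (Tgif2, SE 0.31), with adjusted p-values of 0.909 and above. With the 9 libraries as labelled, the difference of Meis1 was 1.46 (SE 1.47, limma adjusted p = 0.791), with 1 of the 3 WT HSC values at 1.86 TPM.

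Evi1 HSC and WT KL differ by gate as well as by Tie2-Cre and the transgene it turns on. Over the 9 libraries 0 of 7 members were called, where 0.0103% of all tested genes were (2 genes); 0 of 7 members and 2956 of all genes had an unadjusted p under 0.05. Over the 7 libraries Meis1, Pbx2 and Tgif1 rose and no member fell, that is 3 of 7, where 45.5% of all tested genes were called and 31.3% were called higher. The share of members called is near the share of all genes, so the count is no result about the members. Meis1 differed by 4.55 in log2(TPM + 1) (SE 0.15, interval 4.202 to 4.892, limma adjusted p = 1.08e-05). Pbx2 differed by 0.93 (SE 0.13, interval 0.62 to 1.25, limma adjusted p = 0.00168), and Tgif1 by 1.35 (SE 0.18, interval 0.92 to 1.78, limma adjusted p = 0.00127). Tgif2 missed the threshold at 0.72 (SE 0.31, interval -0.01 to 1.44, limma adjusted p = 0.0957). Pbx4 at 1.0, Pknox1 at 0.47 and Pbx3 at -0.05 had adjusted p-values of 0.204, 0.316 and 0.854. The groups did not overlap for 4 of 7 members (these 3 and Tgif2), where 66.5% of all tested genes did not. The median over the members was 0.93, beside 0.28 over all tested genes.

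WT HSC and WT KL show the step between the gates without Cre, so with the transgene not turned on. This comparison shares its WT KL libraries with the one before, so both sets of values rest in part on the same samples. Over the 9 libraries 0 of 7 members were called, where 0.00514% of all tested genes were (1 gene); 0 of 7 members and 282 of all genes had an unadjusted p under 0.05. Over the 7 libraries Meis1, Pbx2 and Tgif1 were higher and no member was lower, again 3 of 7, where 37.5% of all tested genes were called and 26.7% were called higher. Meis1 differed by 4.55 (SE 0.16, interval 4.17 to 4.93, limma adjusted p = 2.22e-05) and Tgif1 by 1.47 (SE 0.20, interval 1.002 to 1.944, limma adjusted p = 0.00193). Pbx2 differed by 0.70 (SE 0.15, interval 0.35 to 1.05, limma adjusted p = 0.0103), a call that was lost without WT HSC replicate 2 (adjusted p = 0.0501) or without WT KL replicate 3 (adjusted p = 0.0580). Pbx4 at 1.28, Tgif2 at 0.50, Pknox1 at 0.50 and Pbx3 at 0.10 did not pass, with adjusted p-values of 0.160, 0.281, 0.352 and 0.768. The groups did not overlap for 5 of 7 members (all but Pbx3 and Pknox1), where 72.6% of all tested genes did not. The median over the members was 0.70, beside 0.26 over all tested genes.

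The scaling bears on both comparisons with WT KL, because the libraries differed in how many genes reached 1 TPM (18258 to 18806 in 6 libraries, and 15422 to 15819 in the other 3, those with low Meis1). Quantile normalisation moved the median difference of all tested genes to -0.08 for Evi1 HSC against WT KL and to -0.10 for WT HSC against WT KL. It changed the split of calls to 3663 higher and 4014 lower, against 6087 and 2776 on the deposited scale, for Evi1 HSC, and to 2999 higher and 3155 lower, against 5203 and 2104, for WT HSC. Meis1, Pbx2 and Tgif1 stayed higher and past the threshold in both.

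**Figure D3:**
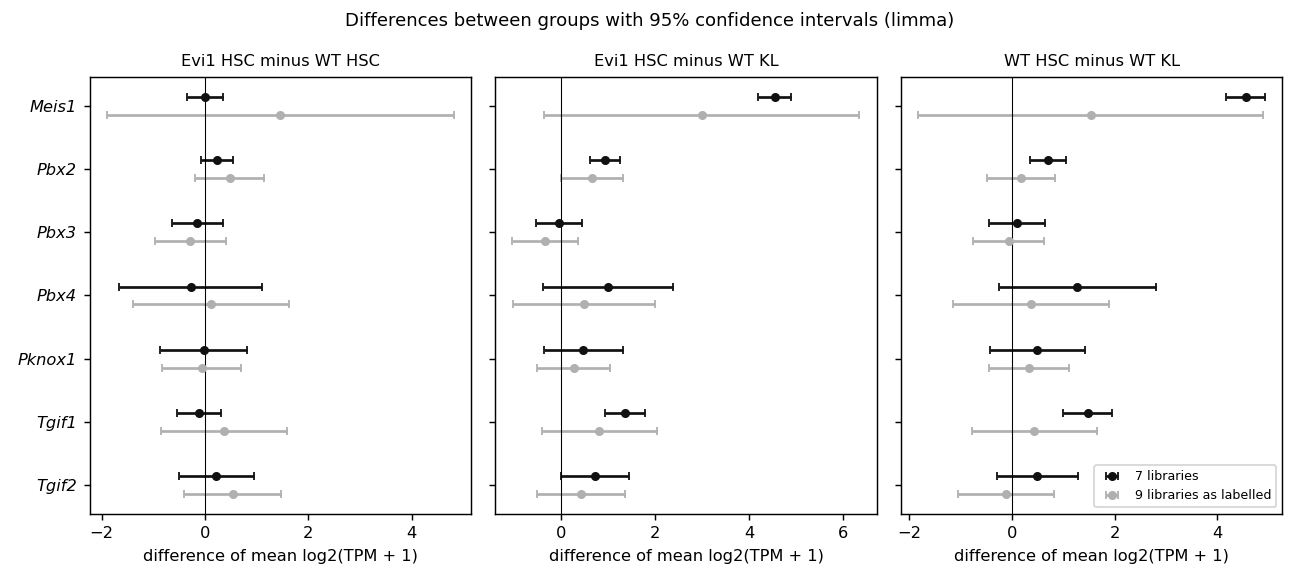
Difference of mean log2(TPM + 1) with its 95% confidence interval (horizontal axes) for the 7 tested members (vertical axis) in the 3 comparisons, over 7 libraries in black and over 9 libraries as labelled in grey. Meis1, Pbx2 and Tgif1 have intervals above 0 against WT KL over 7 libraries, and none of the intervals over 7 libraries leaves 0 between Evi1 HSC and WT HSC.

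Markers of other cell types moved with the groups too. The 7 endothelial markers summed to 308 to 701 TPM in Evi1 HSC, 221 and 383 TPM in WT HSC replicates 1 and 2, and 17.5 and 12.9 TPM in WT KL replicates 2 and 3, where Lyve1 was listed at 0 in both and Cdh5 in replicate 3. Over the 7 libraries, 7 of 7 of these markers were higher in Evi1 HSC than in WT KL and 4 of 7 were higher in WT HSC than in WT KL, where 45.5% and 37.5% of all tested genes were called. Of these markers Cdh5, Kdr, Flt1, Stab2 and Lyve1 were under 1 TPM in WT KL replicates 2 and 3 and in the library labelled WT HSC replicate 3, so they passed the filter through the other libraries and their difference from WT KL was built in. The 7 erythroid markers summed to 28.9 to 50.5 TPM in Evi1 HSC, 165 and 156 TPM in WT HSC replicates 1 and 2, and 887 and 956 TPM in WT KL replicates 2 and 3. Over the 7 libraries 4 of these 7 were lower in Evi1 HSC than in WT HSC, where 0.206% of all tested genes were called. In each HSC group 7 of 7 were lower than in WT KL, where 45.5% and 37.5% of all tested genes were called. Over the 9 libraries as labelled 0 of 7 were called in any comparison. For Evi1 HSC against WT HSC, 6 of 7 had an unadjusted limma p under 0.05 over the 9 libraries, where 907 of 19461 tested genes had. Over the 7 libraries it was also 6 of 7, where 1635 of all tested genes had. The 4 calls between Evi1 HSC and WT HSC were unstable. With replicate number added as a block, 0 of all tested genes were called there over the 7 libraries. With only the compared groups, 1 was called lower. The 7 genes of committed progenitors and granulocytes summed to 36.2 to 40.7 TPM in Evi1 HSC, 41.6 and 28.2 TPM in WT HSC replicates 1 and 2, and 1811 and 595 TPM in WT KL replicates 2 and 3. Ctsg and S100a8 were listed at 0 in every Evi1 HSC library and both of these WT HSC libraries. Hepatocyte markers summed to at most 23.4 TPM (the library labelled WT KL replicate 1), macrophage markers to at most 10.02 TPM and stromal markers to at most 1.69 TPM. The part of these cell types in the values of the TALE genes was not tested.

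The Hox genes are the DNA-binding partners of Meis and Pbx proteins, so the 39 genes of the 4 Hox clusters were read beside the members. They summed to 133 to 175 TPM in Evi1 HSC, 138 and 147 TPM in WT HSC replicates 1 and 2, and 1.02 and 0.630 TPM in WT KL replicates 2 and 3. The sums were 0.819 TPM for the library labelled WT HSC replicate 3 and 149 TPM for that labelled WT KL replicate 1, so Hox transcripts and Meis1 were high in the same 6 libraries. Of the 39 genes 14 passed the filter, all from the A and B clusters, and each reached 1 TPM only in those libraries, so a difference from WT KL was built into the filter and their count is no support. Over the 7 libraries 14 of 14 were higher in Evi1 HSC than in WT KL (median difference in log2(TPM + 1) 2.90, beside 0.28 over all tested genes) and 13 of 14 in WT HSC than in WT KL (median 2.62, beside 0.26), with Hoxb9 missing the threshold at 0.90 (limma adjusted p = 0.0663). Between Evi1 HSC and WT HSC 0 of 14 were called (median 0.20, beside 0.00053). Hoxa9, the partner of Meis1 in leukaemia, was the highest of them, with 50.4, 38.6 and 48.6 TPM in Evi1 HSC, against 45.7 and 49.3 TPM in WT HSC replicates 1 and 2 and 0.659 and 0.137 TPM in WT KL replicates 2 and 3. The other 25 Hox genes did not exceed 2.20 TPM in any library. The Iroquois and Mohawk genes, a further TALE branch that patterns embryos, were all but silent: the 7 of them summed to at most 0.0527 TPM in a library.

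Against WT KL, Pbxip1, a protein that binds Pbx and holds it off DNA, moved in the same direction as Pbx2. It had 7.29, 7.18 and 7.46 TPM in Evi1 HSC, 6.18 and 8.31 TPM in WT HSC replicates 1 and 2, and 4.03 and 3.41 TPM in WT KL replicates 2 and 3. Its difference over the 7 libraries was 0.82 for Evi1 HSC against WT KL (SE 0.18, limma adjusted p = 0.00987) and 0.80 for WT HSC against WT KL (SE 0.20, limma adjusted p = 0.0194). Of all tested genes 45.5% and 37.5% were called in these comparisons. Between Evi1 HSC and WT HSC the Pbxip1 values overlapped, with a difference of 0.02 (SE 0.18, limma adjusted p = 0.989).

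Among 10 Smads, corepressors and histone deacetylases that work with Tgif proteins, all passed the filter, 5 were higher in Evi1 HSC than in WT KL (Smad3, Smad4, Ski, Hdac1 and Sin3a), and 4 in WT HSC than in WT KL (the same without Hdac1), with none lower. Of all tested genes 45.5% and 37.5% were called in these comparisons, so the counts are near the background and are no result about the Tgif partners. Their median difference in log2(TPM + 1) was 0.48 and 0.42 in these comparisons, beside 0.28 and 0.26 over all tested genes. Smad3, a signal carrier of the TGF-beta receptor, had 48.6, 45.4 and 54.7 TPM in Evi1 HSC, against 45.5 and 52.6 TPM in WT HSC replicates 1 and 2 and 6.78 and 7.12 TPM in WT KL replicates 2 and 3. That is a difference of 2.67 for Evi1 HSC (SE 0.14, limma adjusted p = 3.87e-05) and of 2.65 for WT HSC (SE 0.15, limma adjusted p = 9.49e-05). Smad2, the other receptor-regulated Smad of this pathway, had 8.71, 6.91 and 6.21 TPM in Evi1 HSC, 6.91 and 6.46 TPM in WT HSC replicates 1 and 2, and 4.74 and 11.7 TPM in WT KL replicates 2 and 3, and its groups overlapped. The corepressor Ski, with differences of 1.85 and 1.71, and Smad4, the shared Smad partner, with 1.71 and 1.62, followed Smad3 in size for Evi1 HSC and WT HSC over WT KL. Between Evi1 HSC and WT HSC 0 of 10 were called, and over the 7 libraries 0 of these 10, of the 14 Hox genes and of the 8 tested Meis1 targets had an unadjusted p under 0.05.

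Of 9 genes reported as targets of Meis1 in blood or leukaemia cells, 8 passed the filter (Ccl3 did not). Against WT KL, 5 were higher and 1 was lower in Evi1 HSC, and the counts for WT HSC were also 5 and 1, with Epas1, Ccnd3, Flt3, Syk and Pf4 higher and Trib2 lower in each. Epas1, Flt3 and Pf4 reached 1 TPM only in the 6 libraries with high Meis1, and Trib2 only in the other 3, so their differences were built into the filter, and neither the counts nor the median are support. Flt3, a cytokine receptor of early progenitors, had 16.0, 7.95 and 15.3 TPM in Evi1 HSC, 8.057 and 8.005 TPM in WT HSC replicates 1 and 2, and 0.693 and 0.698 TPM in WT KL replicates 2 and 3. Syk, a signalling kinase, differed by 1.81 from WT KL in both HSC groups (SE 0.17 and 0.19, limma adjusted p = 0.000302 for Evi1 HSC and 0.000699 for WT HSC). Trib2, a pseudokinase, went the other way, with 0.457, 0.332 and 0.117 TPM in Evi1 HSC, 0.710 and 0.942 TPM in WT HSC replicates 1 and 2, and 3.89 and 5.18 TPM in WT KL replicates 2 and 3. Hif1a and Myb missed the threshold in both comparisons. The median difference over the 8 genes was 1.22 for Evi1 HSC and 1.33 for WT HSC, beside 0.28 and 0.26, and 0 of 8 were called between Evi1 HSC and WT HSC. With the 9 libraries as labelled, 0 of the 14 Hox genes, 10 Tgif partners and 8 targets, and not Pbxip1, were called by limma in any of the 3 comparisons; 4 Hox genes and 2 targets had an unadjusted p under 0.05 for Evi1 HSC against WT KL, and 0 in the other 2 comparisons.

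**Figure D4:**
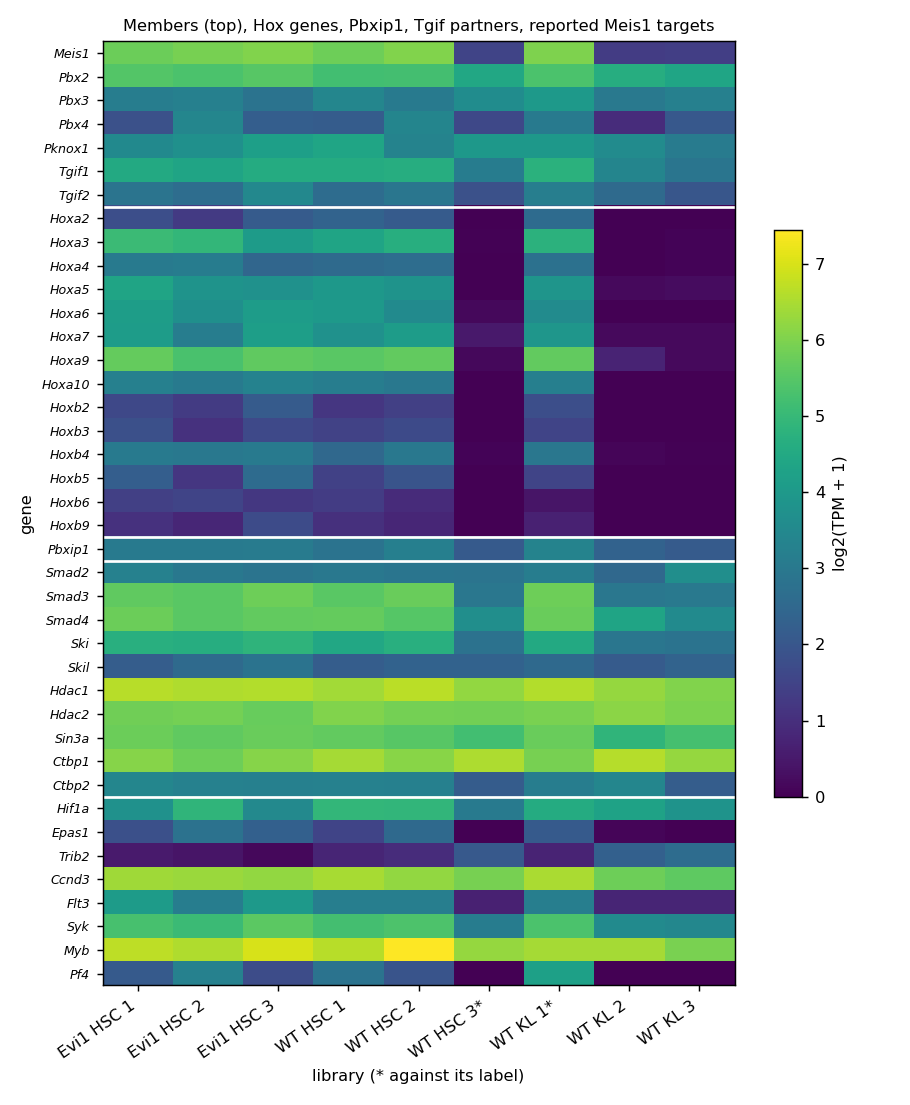
log2(TPM + 1) (colour) of the members, Hox genes, Pbxip1, Tgif partners and reported Meis1 targets that passed the filter (rows, with white lines between these groups) in each library (columns, Evi1 HSC, WT HSC, WT KL; asterisks mark the libraries labelled WT HSC replicate 3 and WT KL replicate 1). Meis1 and the 14 Hox genes are dark in WT KL replicates 2 and 3 and in the library labelled WT HSC replicate 3, while Pbx3 and Pknox1 keep a similar colour throughout.

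The genes whose pattern over the 9 libraries lay closest to each member were found by the root mean square difference of centred log2(TPM + 1) among 6869 genes averaging 10 TPM or more. For Meis1 they were Fstl1, Il16 and Maged2, at 0.13, 0.14 and 0.15. Fstl1, a secreted glycoprotein, had 34.98, 33.30 and 38.49 TPM in Evi1 HSC, against 33.0 and 34.8 TPM in WT HSC replicates 1 and 2 and 0.448 and 0.224 TPM in WT KL replicates 2 and 3. For Pbx2 they were Msn, Zfp292 and Ccar2, at 0.05, 0.06 and 0.06, and for Tgif1 they were Rbbp9, Prkra and Wdr13, at 0.10, 0.10 and 0.11. No other member came so near, and the closest pair of members was Pbx2 and Tgif2, at 0.24. For the other 4 members the nearest gene lay at 0.14 (Muc13, for Pbx3) to 0.36 (Atp2c1, for Pbx4).

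Promoter windows are shown for Meis1 and Tgif1, which differed between the stem cell and progenitor gates and held matches to the letters searched. Pbx2 differed too, but its window held no match. The windows are from RefSeq on GRCm38.p6, hold 250 bases before and 50 from a transcription start, and existed for 7 of the 9 members (11 starts, with none for Pbx3 and Pknox1). They were searched on both strands for TGACAG (the core of Meis and Tgif sites), TGATNNAT (Pbx with Hox), AGATAA (bound by GATA factors), GACAAGATA and GAAGATGAG (the first and second finger domains of EVI1), TGTGGT (Runx) and CCGGAAGT (Ets). Below are Meis1 at chr11:19018920-19019219 on the minus strand and the third of 5 starts of Tgif1, picked for its match, at chr17:70851161-70851460 on the minus strand, each 5′ to 3′ in the direction of its gene with the matches in capitals.
Meis1: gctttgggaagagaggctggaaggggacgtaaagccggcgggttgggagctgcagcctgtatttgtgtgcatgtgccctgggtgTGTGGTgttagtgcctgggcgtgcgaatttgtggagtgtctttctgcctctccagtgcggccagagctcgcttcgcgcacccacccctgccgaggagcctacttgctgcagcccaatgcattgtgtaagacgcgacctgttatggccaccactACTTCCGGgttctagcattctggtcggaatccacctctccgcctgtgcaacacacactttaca
Tgif1: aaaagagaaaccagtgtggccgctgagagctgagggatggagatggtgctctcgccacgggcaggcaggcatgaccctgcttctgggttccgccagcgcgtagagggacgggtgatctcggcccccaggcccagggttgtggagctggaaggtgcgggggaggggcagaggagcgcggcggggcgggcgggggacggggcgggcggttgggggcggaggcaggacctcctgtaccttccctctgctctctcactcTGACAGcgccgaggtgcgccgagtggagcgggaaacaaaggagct
The Meis1 window held TGTGGT at position -166 from the start and, on the other strand, CCGGAAGT (printed as ACTTCCGG) at -13. Among all 32851 windows 16.8% held TGTGGT and 3.89% held CCGGAAGT. The window of Meis3, which did not exceed 0.505 TPM in any library, held the same CCGGAAGT match at -19. Of the 5 Tgif1 windows the third and the fifth held TGACAG, the Meis and Tgif core, which 19.2% of all windows held. The fourth held a match to TGATNNAT, which 8.85% of all windows held, and the first 2 held none of the letters searched, so the printed window does not stand for the gene. Neither EVI1 motif was found in any member's window, where 0.119% and 0.399% of all windows held them, and the windows of Meis2, Pbx2, Pbx4 and Tgif2 held none of the letters searched. A match is a run of letters and no sign of binding.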

How the data were processed

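Gene expression was measured by RNA-seq in 9 libraries, grouped by their titles into the 3 groups above. The authors deposited TPM per gene, 1 library per file, per the file headers; in the file of WT HSC replicate 2 the value column had another heading, C_H3, and was used as TPM. The submitters' processing notes name HISAT2, StringTie and mm10, without versions; the sources used here state neither the annotation nor strand use. TPM keeps no read depth, so depth is unknown, and counting intervals or floors cannot be had for genes listed at 0. The listed genes took 56.9 to 63.8% of the TPM scale, so other features held the rest. A rise of abundant genes lowers all other TPM values of a library.

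limma 3.58.1 (in R 4.3.3) was run on log2(TPM + 1) (1 mean per group, trended moderated statistics), over genes at 1 TPM or more in 3 or more of 9 libraries. A difference on this scale understates the change of low genes. The fit over 9 libraries was repeated over 7 libraries (the 2 against their labels left out), with the same 19461 genes. The script was tested on simulated data with the spread of the 7 libraries. That test does not cover the wider spread of the 9 libraries as labelled. Figures and tables used Python 3.11.15. Pseudogene transcripts were aligned with blastn 2.17.0+ to the member transcripts. The genes named were the 9 members, the 3 nearest genes by pattern (candidates without predicted or clone names, shown for the members that were called and otherwise by range), genes of the lists, and the label checks. Members and lists were chosen with earlier results of these data known. Alternatives were another pseudocount, no low-value filter, quantile normalisation, a replicate block, only the compared groups, and leaving out each library.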

Additional observations from a re-analysis of the deposited data

How the results depend on the processing

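Over the 9 libraries as labelled, 0 members were called in any comparison under any alternative that kept both libraries against their labels or left out 1 library; leaving both out gave 3 called members against WT KL for Evi1 HSC and 3 for WT HSC. The counts of all genes called were low and unstable over 9 libraries. For Evi1 HSC against WT HSC (1 called) they were 0 with a pseudocount of 0.1, 3 with no filter, 40 without both libraries and 1 to 3 leaving out each library. For Evi1 HSC against WT KL (2 called) they were 1 with the smaller pseudocount, 6 with no filter, 6 after quantile normalisation, 8863 without both libraries, and 2 to 96 leaving out each (96 without the library labelled WT KL replicate 1). For WT HSC against WT KL (1 called) they were 2 with no filter, 7307 without both libraries and 1 to 4 leaving out each. Over 7 libraries the 40 genes called between Evi1 HSC and WT HSC became 6 with only the compared groups and 5 to 27 leaving out each library (5 without WT HSC replicate 1), the 8863 became 5641 to 8703 and the 7307 became 4291 to 7324 (4291 without WT KL replicate 3). Deviations of same-numbered libraries from their group means correlated at -0.64 to 0.70 over 9 libraries and -0.06 to -0.0066 over 7. These values cannot decide whether equal numbers are pairs. Those over 9 hold the 2 libraries against their labels, and over 7 the deviations in a group of 2 are mirror images. The numbers were not taken as pairs. Over 7 libraries the replicate block gave 0, 7526 and 4947 genes in these 3 comparisons, and 0, 3 and 2 called members. Pbx2 missed there at a limma adjusted p of 0.0664 in WT HSC against WT KL.

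Members that changed sign were all uncalled. Leaving out both libraries turned the differences in log2(TPM + 1) of Meis1 to -0.0045, Pbx4 to -0.28 and Tgif1 to -0.12 for Evi1 HSC against WT HSC, and of Pbx3 to 0.10 and Tgif2 to 0.50 for WT HSC against WT KL. Over 9 libraries quantile normalisation turned Pbx4 to -0.11 for Evi1 HSC against WT HSC. Over 7 libraries it turned Pbx3 to -0.28 and Tgif2 to -0.033 for WT HSC against WT KL, and the block turned Pbx3 there to -0.042. Leaving out each library gave, over 9 libraries, ranges for Evi1 HSC against WT HSC of -0.0045 to 2.25 (Meis1), -0.34 to 0.61 (Pbx4), -0.34 to 0.17 (Pknox1) and -0.12 to 0.63 (Tgif1), for Evi1 HSC against WT KL of -0.049 to 1.0 (Pbx4), and for WT HSC against WT KL of -0.028 to 0.46 (Pbx2), -0.26 to 0.23 (Pbx3), -0.16 to 0.89 (Pbx4) and -0.42 to 0.20 (Tgif2). Over 7 libraries the ranges were, for Evi1 HSC against WT HSC, -0.12 to 0.11 (Meis1), -0.34 to 0.040 (Pbx3), -0.88 to 0.32 (Pbx4), -0.54 to 0.49 (Pknox1) and -0.017 to 0.39 (Tgif2), for Evi1 HSC against WT KL -0.16 to 0.071 (Pbx3), and for WT HSC against WT KL -0.093 to 0.29 (Pbx3) and -0.021 to 1.011 (Pknox1). The cause was not tested. Over 7 libraries Meis1 stayed called against WT KL under all 11 alternatives, at 4.11 to 5.15 for Evi1 HSC and 4.15 to 5.15 for WT HSC. With 2 libraries in 2 groups, leaving 1 out assumes that the lone library varies like the others.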

Other observations

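Within a library, ratios of members do not depend on its scaling. Meis1 over Pbx2 was 1.26 to 1.52 in Evi1 HSC, 1.53 and 1.79 in WT HSC replicates 1 and 2, and 0.0636 and 0.0822 in WT KL replicates 2 and 3. Meis1 over Tgif1 was 2.41 to 3.06 in Evi1 HSC, 2.37 and 2.71 in WT HSC replicates 1 and 2, and 0.161 and 0.253 in WT KL replicates 2 and 3. Pbx2 over Pbx3, both Pbx proteins, was 4.69 to 7.39 in Evi1 HSC, 3.694 and 4.999 in WT HSC replicates 1 and 2, and 3.36 and 2.33 in WT KL replicates 2 and 3. The Pbx genes listed here together had 52.8 to 57.3 TPM in Evi1 HSC, 48.7 and 52.4 TPM in WT HSC replicates 1 and 2, and 31.8 and 31.1 TPM in WT KL replicates 2 and 3, so they varied far less between gates than Meis1.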
